A study of Mus musculus with 36 samples.

Results

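The genes described here encode the collagen α chains, 3 of which wind around each other to form a collagen molecule. Members were all entries of the deposited count table named Col, a number, a and a number, with a mean of at least 10 counts over the 36 libraries. The table held 44 such chain entries among 36930, and 30 reached that mean. The members nearest the threshold were Col10a1, with a mean of 13.2 counts, and Col28a1, with 13.6, and the chains just below it were Col9a3, with 9.08, and Col22a1, with 4.53. All 30 members passed the filter on low counts and were tested, so none was left out.

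The libraries came from mouse embryonic fibroblasts (MEFs), cells grown from mouse embryos that make abundant matrix, and were either wild type (WT) or PERK -/- (called Perk-null here). Each genotype was given the solvent DMSO (vehicle), thapsigargin, BtdCPU, halofuginone, BtdCPU + thapsigargin, or halofuginone + thapsigargin, with 3 libraries in each of the 12 groups. The labels give no dose, time or batch, and they name no clone or second line for either genotype, so a difference between genotypes cannot be told apart from a difference between the lines. They do not say whether replicates were separate cultures, so p-values measure the spread between these libraries, which may be technical.

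Collagen chains are made in the endoplasmic reticulum (ER), where prolines are hydroxylated and the triple helix folds before secretion. Fibrillar types I, III and V build the fibres of connective tissue, type IV builds basement membrane sheets, and type VI builds beaded filaments next to cells. Chains are unusually rich in proline. Halofuginone inhibits the enzyme that charges the proline tRNA, which activates the kinase GCN2, and it is known as an antifibrotic compound that lowers type I collagen synthesis. Thapsigargin blocks the ER calcium pump and so disturbs folding in the ER, which PERK senses, and BtdCPU activates the kinase HRI. All of these kinases phosphorylate the translation factor eIF2α, the step that starts the integrated stress response.

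Libraries held 32454257 to 37178107 counts. Levels are given as CPM, a gene's counts relative to the library total after scaling between libraries by TMM (trimmed mean of M values), and per-kilobase CPM is used where levels of different genes are compared. "Higher" or "lower" and the verbs rose and fell are used of edgeR quasi-likelihood tests with a Benjamini-Hochberg adjusted p under 0.05 over all 16065 tested genes, and all changes are log2 values with the standard error (SE) of the fit. Eif2ak3, which encodes PERK, read 30.3, 32.4 and 30.7 CPM in the WT DMSO libraries and 9.37, 9.67 and 10.8 in the Perk-null ones. In every treatment each Perk-null library lay below each WT library, which is a lower transcript level and not its absence. All 9 fibroblast markers examined reached a mean of 10 counts, and their summed level ran from 7434 to 7596 CPM in WT DMSO libraries, 5579.5 to 6136 with halofuginone and 4166 to 4798 with thapsigargin. In Perk-null DMSO libraries the sum ran from 4629 to 5119 CPM. These markers are unequal parts of it. Over all libraries Vim ran from 2415 to 6205 CPM and S100a4 from 99.6 to 2126, and no other passed 369. Dpt had a median of 0.101 CPM. The sum of 6 epithelial markers ran from 0.867 to 1.09 CPM in WT DMSO libraries and 20.5 to 29.1 with halofuginone. Over all libraries the keratins Krt8, Krt18 and Krt19 reached 14.3, 8.62 and 5.42 CPM. Epcam, Cldn4 and Cdh1 reached only 0.169, 0.493 and 1.08 CPM. The 6 myofibroblast and smooth muscle markers summed to 1736 to 3499 CPM in WT DMSO libraries and 1142 to 2017 with halofuginone, which overlap. The part of these shifts in the collagen values was not tested, and in bulk libraries fewer cells of a type and less RNA per cell cannot be told apart.

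In DMSO, type I chains stood above all other collagens. Per kilobase, WT cells held 1092 ± 111 CPM of Col1a2 and 939 ± 196 of Col1a1 (SD, n = 3), the chains of type I collagen. Col3a1, the single chain of type III, held 305 ± 45.4 CPM per kb, Col5a2 208 ± 18.9, Col4a1 198 ± 24.7 and Col6a1 188 ± 2.78. The libraries of the type I chains overlap, as do those of Col4a1 with both Col5a2 and Col6a1, while those of Col5a2 lie above those of Col6a1. Perk-null cells held 1057 ± 96.9 CPM per kb of Col1a2 and 477 ± 81.6 of Col1a1, which did not overlap, followed by Col5a2 at 147 ± 11.1 and Col4a1 at 122 ± 14. Below these stood Col3a1, at 104 ± 6.85 CPM per kb. The members together took 1.98% ± 0.132 of a library's counts in WT DMSO, 1.22% ± 0.128 with thapsigargin, 1.22% ± 0.0760 with halofuginone and 1.94% ± 0.0259 with BtdCPU. In Perk-null cells the shares were 1.36% ± 0.138 with DMSO, 1.91% ± 0.277 with thapsigargin, 1.10% ± 0.0152 with halofuginone and 1.35% ± 0.171 with BtdCPU.

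**Figure D1:**
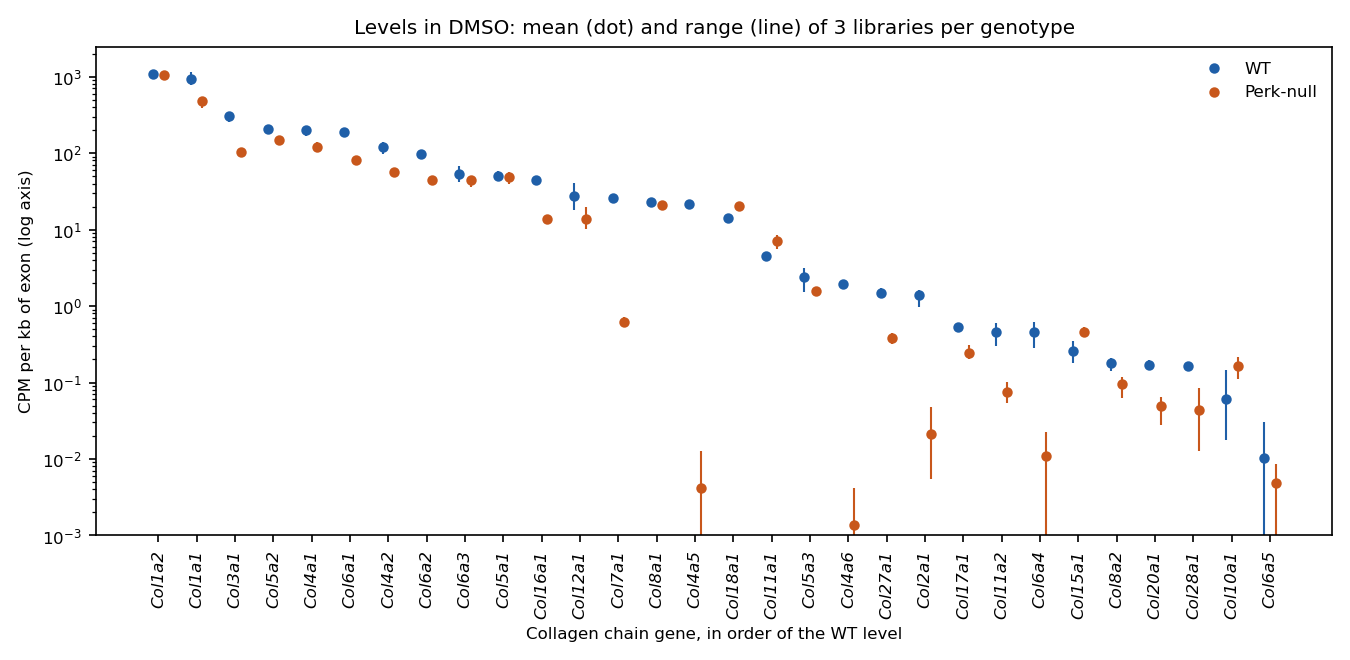
Level of each of the 30 collagen chains in DMSO, in CPM per kilobase on a log axis, with WT and Perk-null cells side by side (dot, mean of 3 libraries; line, their range). Col1a2 and Col1a1 lead in WT cells, and Col4a5, Col4a6, Col2a1, Col7a1 and Col6a4 show the widest gaps between genotypes.

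The comparison of the genotypes asks how Perk-null and WT cells differed before any drug. Most collagen chains were lower in Perk-null cells. Of the 30 chains 20 were lower and 3 higher, against 24.6% of all tested genes called higher and 24.9% called lower (49.5% in all). The median log2 change over the 30 chains was -1.07, beside 0.021 over all tested genes. Leaving out the 3 chains with a group at the floor of 3 counts a library, the median was -1.0. The chains higher in Perk-null cells were Col15a1 (0.80), Col11a1 (0.62) and Col18a1 (0.50). Col15a1 and Col18a1 encode multiplexins, basement membrane collagens that carry an endostatin-like domain, and Col11a1 is a minor fibril chain. Col15a1 lost its call without Perk-null DMSO replicate 1 (0.82) or 3 (0.67) or WT DMSO replicate 2 (0.77) or 3 (0.61). The call of Col11a1 was lost without Perk-null DMSO replicate 3 (0.45). Col15a1 also lost its call with no filter on low counts (0.77).

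The largest genotype differences among the chains lay in those near 0 in Perk-null cells. Col4a5 and Col4a6, paired head to head on chromosome X, encode the type IV chains that join in basement membranes of skin and smooth muscle. Col4a5 in WT cells read 145, 153 and 126 CPM with DMSO, 77.3, 89.4 and 114 with thapsigargin, 146, 147 and 160.2 with BtdCPU, and 107, 102 and 117 with halofuginone. The 3 Perk-null DMSO libraries held 3 counts of Col4a5 in all, against 14588 in WT. The depth-scaled ratio was 5203, with a 95% counting interval from 1780 to 25232. Col4a6 had 1 count against 1310, a ratio of 1402 with an interval from 251 to 55403. Such intervals cover counting error only. Over all 18 Perk-null libraries Col4a5 read 0 to 0.160 CPM and Col4a6 0 to 0.165 CPM, so no treatment brought either chain near its WT level.

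Col7a1, the chain of the anchoring fibrils that tie epithelial basement membrane to the dermis, read 231, 238 and 247 CPM in WT DMSO libraries and 4.94, 6.56 and 5.76 in Perk-null ones. The change was -5.37 (SE 0.18, adjusted p 1.74e-21). Col2a1, the chain of cartilage type II collagen, read 7.89, 4.95 and 8.26 CPM against 0.246, 0.0276 and 0.0538, and Col6a4 read 3.46, 2.11 and 4.52 CPM against 0.164, 0 and 0.0807. Neither gene overlapped between genotypes, and the changes were -5.97 (SE 0.41, adjusted p 1.54e-13) for Col2a1 and -5.30 (SE 0.53, adjusted p 5.97e-10) for Col6a4. Without Perk-null DMSO replicate 1 these became -7.31 and -6.24. Of 10 cartilage markers, which include Col2a1 and the low chain Col10a1, Acan, Matn1, Hapln1 and Lect1 had at most 13 counts in any library, Matn3 at most 22, Comp at most 38 and Col9a1 none, while Sox9 ran from 15.7 to 98.8 CPM. Summed, the 10 held 51.1 to 81.4 CPM in WT DMSO and 28.8 to 38.5 in Perk-null DMSO libraries, which do not overlap. The part of cartilage-like cells in the Col2a1 values was not tested.

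Among the abundant chains, Col3a1 (-1.55), Col6a1 (-1.22), Col6a2 (-1.11), Col4a2 (-1.10), Col1a1 (-0.98), Col4a1 (-0.70) and Col5a2 (-0.50) were lower in Perk-null DMSO cells, and no library overlapped between genotypes. Also lower were Col11a2 (-2.61), Col27a1 (-1.95), Col20a1 (-1.77), Col16a1 (-1.67) and Col17a1 (-1.14). Col12a1 (-1.0), Col5a3 (-0.62) and Col28a1 (-1.92) were lower but depended on single libraries. Col12a1 lost its call without Perk-null DMSO replicate 1 (-0.88) or 2 (-0.82) or WT DMSO replicate 3 (-0.62). The call of Col5a3 was lost without WT DMSO replicate 1 (-0.37). Col28a1 did not pass without Perk-null DMSO replicate 3 (-1.50). Without Perk-null DMSO replicate 1 Col28a1 stood at -2.83. Col16a1, a FACIT chain, read 218, 250.3 and 219 CPM in WT and 67.6, 70.2 and 78.2 in Perk-null DMSO libraries, which do not overlap. The changes of Col1a2 (-0.046), Col5a1 (-0.072) and Col6a3 (-0.26) did not pass. Col8a1 (-0.16), Col8a2 (-0.93) and Col10a1 (1.38) did not pass either, and Col6a5 was at the floor in Perk-null cells.

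Promoter letters of the 3 chains with the widest genotype gap at high WT counts are given here, 250 bases before the RefSeq start in GRCm38.p6, 5′ to 3′ on the gene's strand, with capitals marking CCAAT or its complement ATTGG. Col4a5 lies at chrX:141475169-141475418 (plus strand), Col4a6 at chrX:141474077-141474326 (minus strand) and Col7a1 at chr9:108953336-108953585 (plus strand).
Col4a5: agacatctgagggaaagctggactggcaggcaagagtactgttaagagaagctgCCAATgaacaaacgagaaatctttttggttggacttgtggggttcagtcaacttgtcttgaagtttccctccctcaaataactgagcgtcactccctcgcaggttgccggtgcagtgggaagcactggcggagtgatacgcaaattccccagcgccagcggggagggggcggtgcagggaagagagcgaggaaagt
Col4a6: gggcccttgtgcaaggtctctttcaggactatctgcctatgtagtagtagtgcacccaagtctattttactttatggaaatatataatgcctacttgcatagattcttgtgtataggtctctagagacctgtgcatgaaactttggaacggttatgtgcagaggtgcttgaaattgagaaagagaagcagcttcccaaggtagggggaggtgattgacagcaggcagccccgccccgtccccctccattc
Col7a1: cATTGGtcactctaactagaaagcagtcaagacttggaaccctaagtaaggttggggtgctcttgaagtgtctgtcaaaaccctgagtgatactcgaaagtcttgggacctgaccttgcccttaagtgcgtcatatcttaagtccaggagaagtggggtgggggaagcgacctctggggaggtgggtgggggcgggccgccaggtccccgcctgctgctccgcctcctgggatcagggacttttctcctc
Of the 30 members 26 had an entry, with 28 windows in all. CCAAT, searched on both strands, was in 11 of 28 windows (39.3%) and in 33.8% of 32851 RefSeq windows of that length. The GC box core GGGCGG was in 18 of 28 (64.3%) and in 32.7% of all windows. TATAAA was in 4 of 28 (14.3%) and in 12.4%. The ER stress element, CCAAT and CCACG with any 9 bases between them, was in 0 of 28 and in 0.113% of all windows. The amino acid response letters TGATGNAAT were in 0 of 28 and in 0.816%. Motifs were counted without regard to overlap with each other. A match is a description of letters and no binding was measured.

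**Figure D2:**
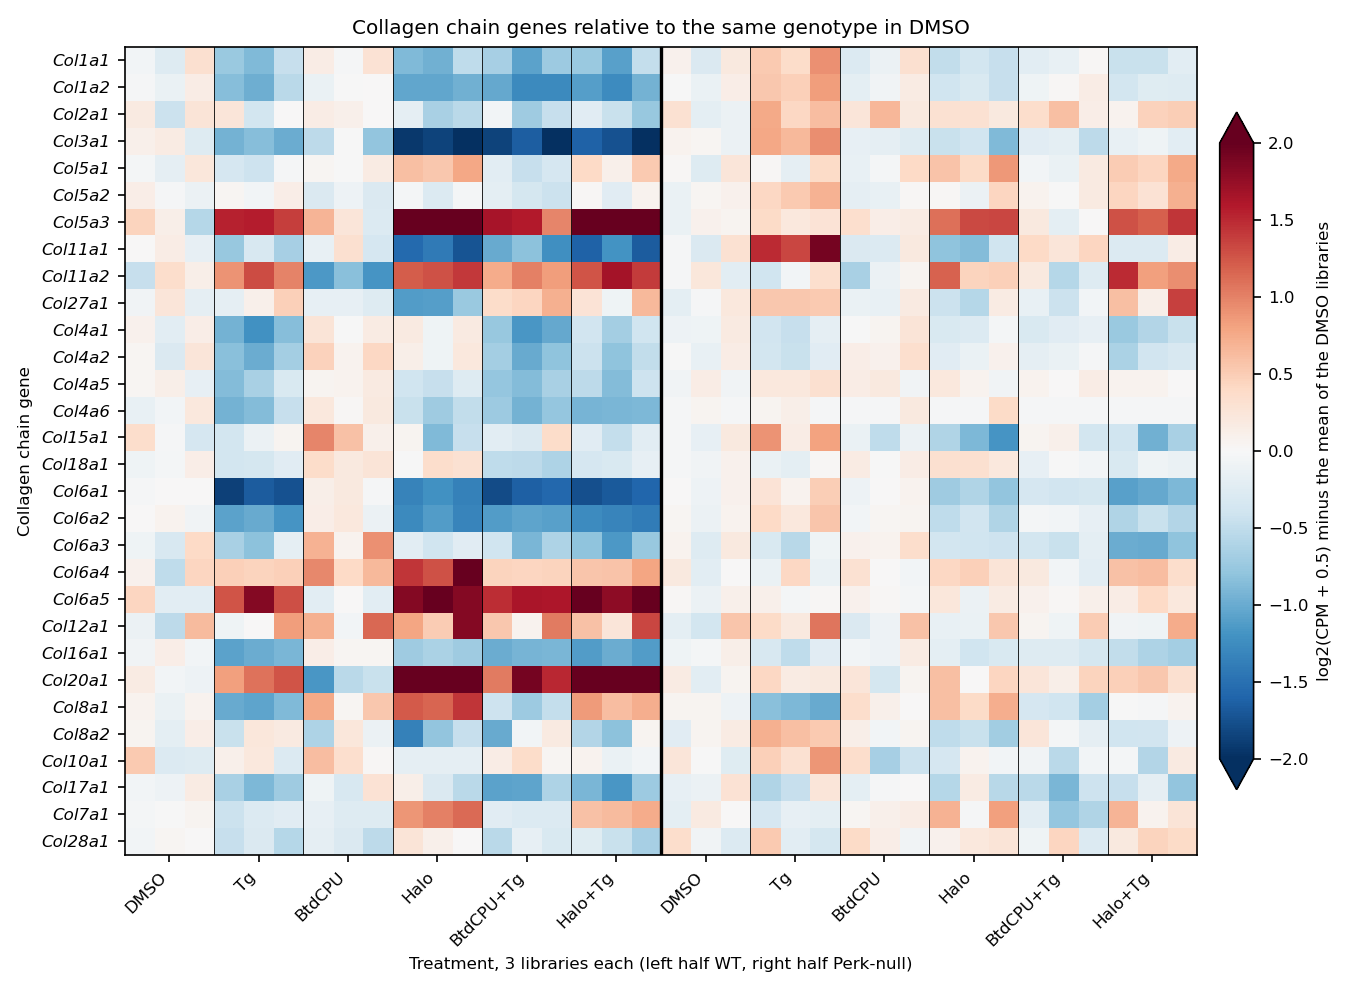
Heatmap of log2(CPM + 0.5) of the 30 chains in all 36 libraries, each minus the DMSO mean of its own genotype, with colours limited at 2 in either direction. WT libraries with thapsigargin are mostly below DMSO for types I, III and IV and for Col6a1, Col6a2 and Col6a3, those with halofuginone for types I and III and for Col6a1 and Col6a2, and Perk-null libraries with thapsigargin are above DMSO for types I and III.

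Thapsigargin against DMSO asks what ER stress did to collagen transcripts with and without PERK. In WT cells 15 chains fell and 4 rose, against 24.9% of all tested genes called higher and 22.7% called lower (47.6% in all). The median log2 change over the 30 chains was -0.43, beside 0.015 over all tested genes. In Perk-null cells 8 rose and 4 fell, against 15.2% of all tested genes called higher and 12.7% called lower (27.9% in all), and the median was 0.39, beside 0.046. The direct test of the genotype difference called 12 chains with a higher response in Perk-null cells and 1 lower, against 19.5% of all tested genes called higher and 18.6% called lower (38.1% in all). Among the 12, Col4a5 rests on a Perk-null DMSO group at the floor. By class, fibrillar chains fell in 4 and rose in 2 of 10 in WT cells, and rose in 6 of 10 in Perk-null cells. All 4 type IV chains fell in WT cells. In Perk-null cells Col4a1 and Col4a2 fell, while Col4a5 and Col4a6 had at most 6 counts in any library and could not be read.

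Halofuginone against DMSO moved the chains in both directions, in WT cells at about the rate of all tested genes. In WT cells 10 rose and 11 fell, against 34.7% of all tested genes called higher and 33.4% called lower (68.2% in all). The median log2 change over the 30 chains was -0.28, beside 0.0041 over all tested genes. In Perk-null cells 6 rose and 9 fell, against 21.2% of all tested genes called higher and 21.0% called lower (42.2% in all), and the median was -0.012, beside 0. The genotype difference was called for 6 chains with a higher and 3 with a lower response in Perk-null cells, against 17.5% of all tested genes called higher and 17.5% called lower (35.0% in all). With scaling by library size alone, the median of all tested genes in the WT comparison moved by -0.11 and the members split as 9 higher and 13 lower. BtdCPU alone called 3 chains higher and 2 lower in WT cells, against 12.9% of all tested genes called higher and 9.31% called lower (22.2% in all). In Perk-null cells BtdCPU called 0 chains with edgeR, with 1 at an unadjusted p under 0.05 and 0 by DESeq2, beside 2.55% of all tested genes higher and 1.04% lower (3.59% in all). No chain's BtdCPU response was called different between genotypes by edgeR, with 2 at an unadjusted p under 0.05 and 0 by DESeq2, beside 0.0373% of tested genes called higher and 0.162% lower (0.199% in all).

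Type I collagen is made of 2 Col1a1 chains and 1 Col1a2 chain and is a main target of antifibrotic compounds. Col1a1 in WT cells read 5293, 4568 and 6838 CPM with DMSO, 3289.8, 2984 and 4001 with thapsigargin, 6059.7, 5372 and 6735 with BtdCPU, and 2964, 2809 and 3843 with halofuginone. The combinations gave 3462, 2614 and 3310.2 CPM with BtdCPU plus thapsigargin, and 3274, 2573 and 3935 with halofuginone plus thapsigargin. Every WT library with thapsigargin, halofuginone or either combination lay below every DMSO library, and the BtdCPU libraries lay within the DMSO range. Col1a1 in Perk-null cells read 2979, 2291 and 3224 CPM with DMSO, 4046, 3603 and 5270.0 with thapsigargin, 2315, 2586 and 3502 with BtdCPU, and 1983, 2177 and 2034 with halofuginone. The 2 combined treatments gave 2427, 2531 and 2846 CPM with BtdCPU plus thapsigargin, and 2067, 2049 and 2430.3 with halofuginone plus thapsigargin. Here every thapsigargin library lay above DMSO and every halofuginone library below it. Col1a1 fell in WT cells by 0.70 with thapsigargin (SE 0.17, adjusted p 0.00137) and changed by -0.80 (SE 0.18, adjusted p 0.000186) with halofuginone. In Perk-null cells the changes were 0.60 (SE 0.17, adjusted p 0.00880) with thapsigargin and -0.46 (SE 0.17, adjusted p 0.0349) with halofuginone. The direction with thapsigargin was opposite in the 2 genotypes and that with halofuginone was the same. In Perk-null cells the thapsigargin change did not pass without thapsigargin replicate 3 (0.39) or DMSO replicate 2 (0.47). The halofuginone change there did not pass without halofuginone replicate 1 (-0.43) or 3 (-0.44) or DMSO replicate 1 (-0.42) or 3 (-0.34). The thapsigargin responses differed by 1.31 (SE 0.25, adjusted p 8.36e-05) between genotypes, and the halofuginone difference was 0.34 (SE 0.25, adjusted p 0.296), which did not pass.

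Col1a2 in WT cells read 5758, 5293 and 6470.5 CPM with DMSO, 3242, 2973 and 4025 with thapsigargin, 5335, 5777 and 5845 with BtdCPU, and 2831, 2821 and 2986 with halofuginone. Combination values were 2868, 2404 and 2405 CPM with BtdCPU plus thapsigargin, and 2717, 2435 and 3032 with halofuginone plus thapsigargin. The groups stood as for Col1a1, with every thapsigargin and halofuginone library below DMSO. Col1a2 in Perk-null cells read 5597, 5168 and 6200.1 CPM with DMSO, 8219, 7850.4 and 10102 with thapsigargin, 4937, 5355 and 6339.9 with BtdCPU, and 4261, 4583 and 4107 with halofuginone. Combined treatment gave 5292, 5718 and 6259 CPM with BtdCPU plus thapsigargin, and 4349, 4746 and 4711 with halofuginone plus thapsigargin. The Perk-null thapsigargin libraries were again the highest and the halofuginone libraries lay below DMSO. In WT cells the changes were -0.78 (SE 0.12, adjusted p 1.82e-06) with thapsigargin and -1.02 (SE 0.12, adjusted p 4.24e-09) with halofuginone. In Perk-null cells they were 0.63 (SE 0.12, adjusted p 9.26e-05) and -0.39 (SE 0.12, adjusted p 0.00687). As for its partner chain, the thapsigargin changes had opposite signs. The halofuginone change in Perk-null cells did not pass without DMSO replicate 3 (-0.31). The genotype difference was 1.40 (SE 0.16, adjusted p 4.51e-08) for thapsigargin and 0.63 (SE 0.16, adjusted p 0.00313) for halofuginone.

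The balance of the type I chains separated the genotypes in every treatment. The per-kilobase ratio of Col1a1 to Col1a2 ran from 0.778 to 1.24 over the 18 WT libraries and from 0.389 to 0.498 over the 18 Perk-null ones. The DMSO libraries gave 0.853 ± 0.0899 for WT and 0.450 ± 0.0435 for Perk-null cells (SD, n = 3). The type IV pair went the other way, with Col4a1 to Col4a2 from 1.40 to 1.80 in WT and 1.88 to 2.27 in Perk-null libraries.

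**Figure D3:**
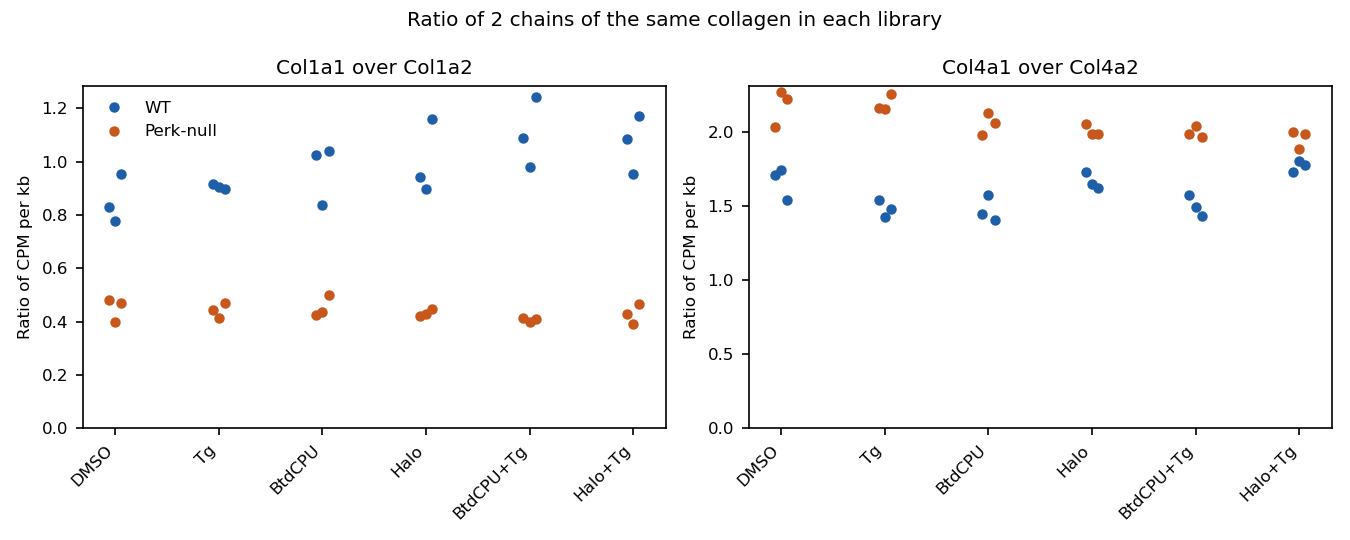
Per-kilobase ratio of Col1a1 to Col1a2 and of Col4a1 to Col4a2 in each of the 36 libraries, by genotype and treatment (points, libraries). The WT and Perk-null libraries do not overlap in either ratio.

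Type III collagen, which Col3a1 encodes, mixes with type I in fibres of skin and vessels. Col3a1 in WT cells read 1808, 1879 and 1409.9 CPM with DMSO, 871, 936 and 851 with thapsigargin, 1169.8, 1671 and 977 with BtdCPU, and 441, 467 and 263 with halofuginone. In the combination libraries it read 469, 540.2 and 355 CPM with BtdCPU plus thapsigargin, and 551, 505 and 418 with halofuginone plus thapsigargin. Every WT group other than BtdCPU lay wholly below DMSO, and halofuginone gave the lowest libraries of the single agents. Col3a1 in Perk-null cells read 608, 594 and 536 CPM with DMSO, 989.6, 907 and 1104 with thapsigargin, 518, 513 and 482 with BtdCPU, and 423, 443 and 313 with halofuginone. Given together the agents gave 495, 503 and 404 CPM with BtdCPU plus thapsigargin, and 520.2, 545 and 502 with halofuginone plus thapsigargin. In Perk-null cells thapsigargin libraries lay above DMSO and halofuginone libraries below it. The halofuginone change was -2.12 (SE 0.19, adjusted p 1.44e-11) in WT, the lowest of any chain there, and -0.56 (SE 0.18, adjusted p 0.0116) in Perk-null cells, which did not pass without halofuginone replicate 3 (-0.41). Halofuginone responses differed by 1.56 (SE 0.25, adjusted p 1.87e-05), so the fall was larger in WT cells. With thapsigargin the changes were -0.94 (SE 0.18, adjusted p 6.43e-05) in WT and 0.79 (SE 0.18, adjusted p 0.00103) in Perk-null cells, and the responses differed by 1.73 (SE 0.25, adjusted p 2.10e-06).

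**Figure D4:**
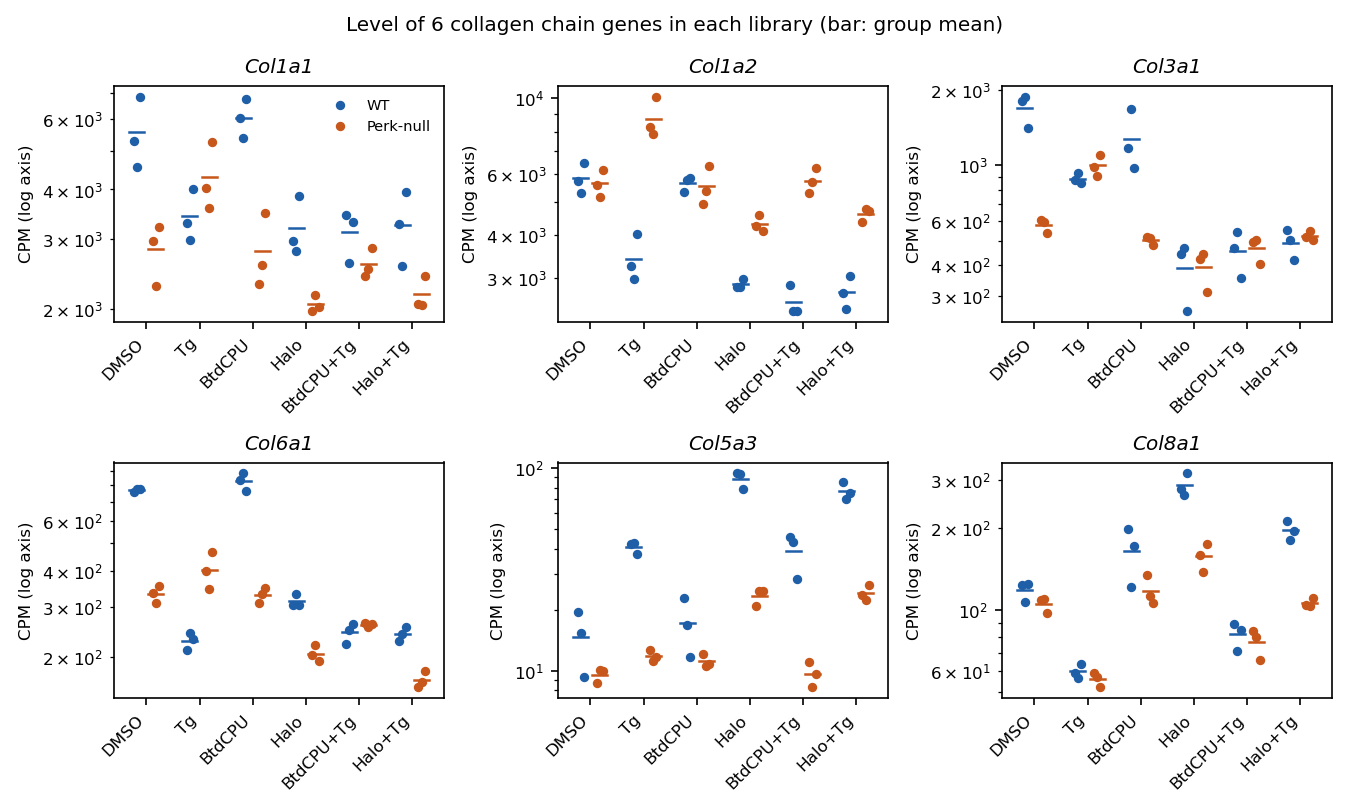
CPM on a log axis of Col1a1, Col1a2, Col3a1, Col6a1, Col5a3 and Col8a1 in each library, by treatment and genotype (points, libraries; bar, group mean). Col1a1, Col1a2 and Col3a1 drop with thapsigargin in WT cells and rise in Perk-null cells, and Col5a3 is highest with halofuginone in WT cells.

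Type V chains start the fibrils and limit their width. Col5a3, the least abundant of them, rose with halofuginone in both genotypes. Col5a3 in WT cells read 19.4, 15.4 and 9.35 CPM with DMSO, 42.1, 42.8 and 37.7 with thapsigargin, 22.9, 16.8 and 11.6 with BtdCPU, and 94.1, 92.8 and 78.8 with halofuginone. The combination groups held 45.4, 43.2 and 28.2 CPM with BtdCPU plus thapsigargin, and 85.4, 70.3 and 74.9 with halofuginone plus thapsigargin. All WT thapsigargin and halofuginone libraries lay above all DMSO libraries, and halofuginone libraries lay above thapsigargin ones. Col5a3 in Perk-null cells read 8.66, 10.1 and 9.92 CPM with DMSO, 12.6, 11.2 and 11.7 with thapsigargin, 12.1, 10.5 and 10.8 with BtdCPU, and 21.0, 24.6 and 24.8 with halofuginone. After combined treatment it read 11, 8.28 and 9.65 CPM with BtdCPU plus thapsigargin, and 23.7, 22.4 and 26.6 with halofuginone plus thapsigargin. Perk-null halofuginone libraries lay above DMSO too, and no thapsigargin library reached them. The halofuginone changes were 2.59 (SE 0.20, adjusted p 1.15e-12) in WT and 1.29 (SE 0.20, adjusted p 3.58e-06) in Perk-null cells, and the responses differed by -1.29 (SE 0.28, adjusted p 0.000498). The thapsigargin change was 1.47 (SE 0.20, adjusted p 2.52e-07) in WT and 0.30 (SE 0.20, adjusted p 0.281) in Perk-null cells, where it did not pass, a difference of -1.17 (SE 0.28, adjusted p 0.00120). Both responses of Col5a3 were larger in WT cells. Col5a1, a chain found in nearly all type V molecules, read 411, 373 and 494 CPM with DMSO, and 645, 616 and 722 with halofuginone in WT cells, without overlap. It rose with halofuginone by 0.63 (SE 0.16, adjusted p 0.000749) in WT and 0.61 (SE 0.16, adjusted p 0.00231) in Perk-null cells, and its counts can include a transcript annotated on the opposite strand. The ratio of Col5a3 to Col5a1 per kilobase went from 0.0492 ± 0.0205 in WT DMSO to 0.186 ± 0.0313 with halofuginone.

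Col5a2 in WT cells read 1515, 1354 and 1269 CPM with DMSO, 1411, 1329.8 and 1512 with thapsigargin, 1130.3, 1283 and 1122 with BtdCPU, and 1337, 1136 and 1337 with halofuginone. The combinations gave 1208, 1077 and 1021 CPM with BtdCPU plus thapsigargin, and 1396, 1179 and 1445 with halofuginone plus thapsigargin. Thapsigargin, BtdCPU and halofuginone libraries overlapped DMSO, and those of BtdCPU plus thapsigargin lay below it. Col5a2 in Perk-null cells read 889.7, 1002 and 1028 CPM with DMSO, 1298, 1399.7 and 1582 with thapsigargin, 857, 874 and 992 with BtdCPU, and 985, 899.9 and 1313 with halofuginone. The 2 combined treatments gave 1019.5, 963 and 1105 CPM with BtdCPU plus thapsigargin, and 1303, 1189.6 and 1590.4 with halofuginone plus thapsigargin. Perk-null thapsigargin libraries all lay above DMSO. Col5a2 was not called with halofuginone in either genotype (-0.12 and 0.13). With thapsigargin it rose in Perk-null cells (0.55) and not in WT ones (0.039), a difference of 0.51 that did not pass without Perk-null thapsigargin replicate 3 (0.43), Perk-null DMSO replicate 1 (0.45) or WT DMSO replicate 1 (0.44).

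Promoter letters are shown for Col1a2 at chr6:4505368-4505617 (plus strand), which fell with halofuginone, and Col5a3 at chr9:20815068-20815317 (minus strand), which rose, with capitals as above.
Col1a2: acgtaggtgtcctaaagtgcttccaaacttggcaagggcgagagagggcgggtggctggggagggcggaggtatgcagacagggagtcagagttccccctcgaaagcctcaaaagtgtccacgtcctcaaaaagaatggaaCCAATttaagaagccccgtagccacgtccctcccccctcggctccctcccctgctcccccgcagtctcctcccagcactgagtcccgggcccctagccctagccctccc
Col5a3: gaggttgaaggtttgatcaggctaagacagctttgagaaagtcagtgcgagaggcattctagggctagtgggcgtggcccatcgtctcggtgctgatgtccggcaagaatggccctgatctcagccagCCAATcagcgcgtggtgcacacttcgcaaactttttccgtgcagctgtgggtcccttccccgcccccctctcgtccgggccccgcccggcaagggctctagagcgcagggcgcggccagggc
Each of these windows holds the marked letters once.

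Type XI and XXVII chains are minor fibrillar collagens. Col11a1 in WT cells read 34.9, 38.4 and 30.8 CPM with DMSO, 20.2, 27.5 and 21.7 with thapsigargin, 31.1, 43.2 and 27.4 with BtdCPU, and 11.5, 12.6 and 10.1 with halofuginone. Combination values were 16.9, 19.3 and 14.5 CPM with BtdCPU plus thapsigargin, and 10.9, 14.8 and 10.5 with halofuginone plus thapsigargin. WT thapsigargin and halofuginone libraries all lay below DMSO. Col11a1 in Perk-null cells read 52.0, 43.2 and 65.4 CPM with DMSO, 149.7, 134 and 201 with thapsigargin, 43.0, 43.8 and 60.8 with BtdCPU, and 30.0, 28.6 and 40.1 with halofuginone. Combined treatment gave 69.9, 62.7 and 71.1 CPM with BtdCPU plus thapsigargin, and 43.8, 43.7 and 58.3 with halofuginone plus thapsigargin. Perk-null thapsigargin libraries lay above every other Perk-null library, and halofuginone libraries lay below DMSO. The thapsigargin changes were -0.59 (SE 0.19, adjusted p 0.0114) in WT and 1.59 (SE 0.19, adjusted p 8.23e-08) in Perk-null cells, and the responses differed by 2.18 (SE 0.27, adjusted p 9.63e-08). The WT change did not pass without thapsigargin replicate 1 (-0.50) or DMSO replicate 2 (-0.51). The halofuginone changes were -1.61 (SE 0.20, adjusted p 1.63e-08) and -0.70 (SE 0.19, adjusted p 0.00285), a difference of 0.90 (SE 0.27, adjusted p 0.00923).

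Col11a2, the partner of Col11a1 in cartilage fibrils, rose with halofuginone (1.40 in WT, 1.25 in Perk-null cells) and in WT cells with thapsigargin (1.16), while BtdCPU lowered it in WT cells (-1.40). In Perk-null cells its halofuginone call was lost without halofuginone replicate 1 (0.83) or DMSO replicate 3 (1.07). It read 1.83, 3.6 and 2.97 CPM in WT DMSO libraries and 6.90, 7.24 and 8.08 with halofuginone, which do not overlap. Col27a1 ran from 4.83 to 18.4 CPM over the 18 WT libraries and from 1.79 to 8.24 over the 18 Perk-null ones. Col27a1 fell with halofuginone in WT cells (-1.06). Col2a1 rose with thapsigargin in Perk-null cells (1.89), from 0.246, 0.0276 and 0.0538 to 0.515, 0.300 and 0.427 CPM. Without Perk-null DMSO replicate 1 the change was 3.24, and the call was lost without DMSO replicate 2 (1.45) or 3 (1.53).

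Basement membrane chains fell with thapsigargin in WT cells. Col4a1 in WT cells read 1376, 1122 and 1426 CPM with DMSO, 677, 560.0 and 721 with thapsigargin, 1559.9, 1295 and 1463 with BtdCPU, and 1474, 1222 and 1466 with halofuginone. In the combination libraries it read 773, 579 and 641 CPM with BtdCPU plus thapsigargin, and 1003, 808 and 984 with halofuginone plus thapsigargin. Thapsigargin and BtdCPU plus thapsigargin libraries all lay below DMSO, and halofuginone libraries overlapped it. Col4a1 in Perk-null cells read 749, 752 and 911 CPM with DMSO, 614, 579.9 and 709.7 with thapsigargin, 800.2, 828 and 960.1 with BtdCPU, and 647, 666 and 777 with halofuginone. Given together the agents gave 649, 681 and 711 CPM with BtdCPU plus thapsigargin, and 476, 533 and 588 with halofuginone plus thapsigargin. The Perk-null thapsigargin libraries lay below DMSO by a smaller margin. Col4a1 changed by -1.0 (SE 0.13, adjusted p 9.09e-08) in WT and -0.34 (SE 0.13, adjusted p 0.0400) in Perk-null cells, and the responses differed by 0.66 (SE 0.18, adjusted p 0.00339). The Perk-null call was lost without thapsigargin replicate 1 (-0.32) or 2 (-0.33) or DMSO replicate 3 (-0.28). Col4a2, its partner in the main type IV molecule, changed by -0.85 (SE 0.13, adjusted p 3.39e-06) and -0.35 (SE 0.13, adjusted p 0.0427). Col4a2 in WT cells read 783, 627 and 903 CPM with DMSO, 428, 382 and 475 with thapsigargin, 1049, 802 and 1016 with BtdCPU, and 831, 722 and 881 with halofuginone. Its WT thapsigargin libraries lay below DMSO. Col4a2 in Perk-null cells read 359, 323 and 399 CPM with DMSO, 277, 263 and 307 with thapsigargin, 394, 379 and 454 with BtdCPU, and 307, 327 and 381 with halofuginone. Here the thapsigargin libraries lay below DMSO too. Its Perk-null call was lost without thapsigargin replicate 1 (-0.34) or 2 (-0.36) or DMSO replicate 1 (-0.36) or 3 (-0.31), and its genotype difference (0.50) without Perk-null thapsigargin replicate 3 (0.43), Perk-null DMSO replicate 1 (0.49) or 2 (0.42), WT thapsigargin replicate 1 (0.49) or 2 (0.42) or WT DMSO replicate 1 (0.48) or 3 (0.37). Col4a1 and Col4a2 share 22 exon bases on opposite strands, head to head on chromosome 8, so a small part of their counts may be shared. Neither passed with halofuginone. In WT cells Col4a5 fell with thapsigargin (-0.59) and halofuginone (-0.38), as did Col4a6 (-0.79 and -0.58). With halofuginone Col4a5 lost its call without halofuginone replicate 2 (-0.34) or DMSO replicate 1 (-0.36) or 2 (-0.32). The call of Col4a6 was lost without halofuginone replicate 2 (-0.50) or DMSO replicate 2 (-0.62) or 3 (-0.47), and under RLE scaling (-0.55). With thapsigargin Col4a6 was not called without thapsigargin replicate 1 (-0.69) or DMSO replicate 3 (-0.67).

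Col18a1 was the more abundant multiplexin. Col18a1 ran from 52.1 to 104 CPM over the 18 WT libraries and from 92.3 to 143 over the 18 Perk-null ones. It fell with thapsigargin in WT cells (-0.31) and rose with halofuginone in WT (0.22) and Perk-null cells (0.28). Col18a1 lost its call without halofuginone replicate 2 (0.15) or 3 (0.14) or DMSO replicate 1 (0.17) or 2 (0.20). In WT cells it was not called with scaling by library size alone (0.096), with no filter on low counts (0.16) or with only the compared groups (0.23). In Perk-null cells it was not called without DMSO replicate 2 (0.25) or with no filter (0.29). Col15a1 changed with halofuginone in Perk-null cells by -1.17 (SE 0.34, adjusted p 0.00561). It read 2.27, 2.01 and 2.72 CPM with DMSO and 1.35, 1.02 and 0.740 with halofuginone, without overlap.

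Type VI chains form beaded filaments from Col6a1 and Col6a2 joined by a longer chain, usually Col6a3. Col6a1 in WT cells read 758, 778 and 777 CPM with DMSO, 210.3, 243 and 229.9 with thapsigargin, 836, 882 and 762 with BtdCPU, and 304, 333 and 303 with halofuginone. The combination groups held 222, 249 and 260.4 CPM with BtdCPU plus thapsigargin, and 227, 241 and 255 with halofuginone plus thapsigargin. The DMSO libraries lay within 758 to 778 CPM, and each thapsigargin or halofuginone library lay below them. Col6a1 in Perk-null cells read 335, 308 and 353 CPM with DMSO, 400.0, 347 and 465 with thapsigargin, 309.7, 332 and 349 with BtdCPU, and 203, 219 and 193 with halofuginone. After combined treatment it read 263, 254 and 259.7 CPM with BtdCPU plus thapsigargin, and 156, 163 and 178 with halofuginone plus thapsigargin. In Perk-null cells halofuginone libraries lay below DMSO and thapsigargin libraries overlapped it. The thapsigargin changes were -1.76 (SE 0.094, adjusted p 1.13e-15) in WT, the lowest of any chain there, and 0.28 (SE 0.091, adjusted p 0.0190) in Perk-null cells. The Perk-null call was lost without thapsigargin replicate 3 (0.12) or DMSO replicate 2 (0.23). That call was also lost with no filter on low counts (0.26) or with only the compared groups (0.25). The difference was 2.04 (SE 0.13, adjusted p 7.20e-13). With halofuginone the changes were -1.30 (SE 0.093, adjusted p 1.59e-13) and -0.70 (SE 0.092, adjusted p 2.81e-07), a difference of 0.60 (SE 0.13, adjusted p 0.000525).

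Col6a2 in WT cells read 453, 469 and 426 CPM with DMSO, 213, 222 and 199 with thapsigargin, 490.5, 519 and 415 with BtdCPU, and 185, 207 and 179 with halofuginone. Its thapsigargin and halofuginone libraries all lay below DMSO. Col6a2 changed by -1.09 with thapsigargin and -1.24 with halofuginone in WT cells, and by 0.40 and -0.50 in Perk-null cells, with differences of 1.49 and 0.74. Its Perk-null thapsigargin call was lost without thapsigargin replicate 3 (0.27).

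Col6a3 in WT cells read 491, 419 and 689.5 CPM with DMSO, 333, 295 and 461 with thapsigargin, 846, 546 and 987 with BtdCPU, and 451, 397 and 446 with halofuginone. The combinations gave 397, 277 and 341 CPM with BtdCPU plus thapsigargin, and 298, 234 and 308 with halofuginone plus thapsigargin. DMSO libraries overlapped those of thapsigargin, BtdCPU and halofuginone. Col6a3 in Perk-null cells read 463, 369 and 507 CPM with DMSO, 359, 300.4 and 417 with thapsigargin, 470.1, 466 and 562 with BtdCPU, and 343, 335 and 333 with halofuginone. The 2 combined treatments gave 343, 325 and 385 CPM with BtdCPU plus thapsigargin, and 222, 219.8 and 253 with halofuginone plus thapsigargin. Halofuginone plus thapsigargin gave the lowest Perk-null libraries. Col6a3 fell with thapsigargin in WT cells (-0.55) with overlapping libraries, and not without thapsigargin replicate 1 (-0.50) or 2 (-0.47) or DMSO replicate 3 (-0.33). By replicate number, each WT thapsigargin library of Col6a3 lay below its DMSO counterpart (333 against 491, 295 against 419 and 461 against 689.5 CPM). The main fit carries no term for replicate number, and these groups were not taken as paired under the rule given with the processing. The per-kilobase ratio of Col6a1 to Col6a2 went from 1.95 ± 0.105 in WT DMSO to 1.23 ± 0.0967 with thapsigargin. Col6a4, a later-described chain that can take the place of Col6a3, rose with halofuginone in WT cells (1.76). Col6a5, another such chain, had 10, 0 and 0 counts in WT DMSO libraries, so its rise rests on low values. It read 0.897, 1.57 and 0.916 CPM with thapsigargin and 1.58, 1.82 and 1.57 with halofuginone, and the changes were 3.5 (SE 0.69, adjusted p 9.81e-05) and 4.05 (SE 0.68, adjusted p 4.64e-06). Without DMSO replicate 1, where the 10 counts lie, the changes were 8.35 and 8.89, and without replicate 2 they were 2.91 and 3.46.

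The FACIT collagens sit on the surface of fibrils. Col20a1, one of them, rose with halofuginone in WT cells. Col20a1 in WT cells read 1.0, 0.787 and 0.743 CPM with DMSO, 1.86, 2.35 and 2.69 with thapsigargin, 0.0989, 0.425 and 0.488 with BtdCPU, and 8.86, 11.1 and 12 with halofuginone. Combination values were 2.25, 4.53 and 3.30 CPM with BtdCPU plus thapsigargin, and 10.6, 12.8 and 15.3 with halofuginone plus thapsigargin. No halofuginone library overlapped DMSO, and BtdCPU libraries lay below it. Col20a1 in Perk-null cells read 0.328, 0.138 and 0.269 CPM with DMSO, 0.488, 0.327 and 0.347 with thapsigargin, 0.375, 0.0792 and 0.272 with BtdCPU, and 0.620, 0.247 and 0.494 with halofuginone. Combined treatment gave 0.375, 0.300 and 0.513 CPM with BtdCPU plus thapsigargin, and 0.529, 0.573 and 0.424 with halofuginone plus thapsigargin. Every Perk-null library stayed under 1 CPM. The halofuginone change was 3.65 (SE 0.33, adjusted p 2.64e-11) in WT and 0.88 (SE 0.45, adjusted p 0.118) in Perk-null cells, which did not pass, and the difference was -2.77 (SE 0.58, adjusted p 0.000383). Thapsigargin raised it in WT cells (1.44) and BtdCPU lowered it (-1.29). Col20a1 lost its call without BtdCPU replicate 1 (-0.89) or DMSO replicate 1 (-1.15). Col16a1 ran from 105 to 250.3 CPM over the 18 WT libraries and from 44.6 to 80.3 over the 18 Perk-null ones. Col16a1 fell in WT cells with thapsigargin (-0.99) and halofuginone (-0.69). In Perk-null cells it fell less in value (-0.35 and -0.30), with differences of 0.64 and 0.39. The Perk-null halofuginone call was lost without DMSO replicate 3 (-0.23) or with no filter on low counts (-0.30), and the halofuginone difference without WT DMSO replicate 2 (0.32).

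Col12a1 is the FACIT chain of tendon and skin fibrils. Col12a1 in WT cells read 279, 210.4 and 466 CPM with DMSO, 284, 304 and 536 with thapsigargin, 493, 289 and 667 with BtdCPU, and 522, 427 and 1076 with halofuginone. In the combination libraries it read 439, 316 and 622 CPM with BtdCPU plus thapsigargin, and 452, 358 and 759 with halofuginone plus thapsigargin. Libraries of all WT groups overlapped. Col12a1 in Perk-null cells read 134, 119 and 226 CPM with DMSO, 199, 175 and 321 with thapsigargin, 125, 142 and 230.5 with BtdCPU, and 138, 139 and 224 with halofuginone. Given together the agents gave 158, 145 and 217 CPM with BtdCPU plus thapsigargin, and 146, 144 and 256 with halofuginone plus thapsigargin. Col12a1 rose with halofuginone in WT cells (1.08) with overlapping libraries. By replicate number, each of these halofuginone libraries lay above its DMSO counterpart (522 against 279, 427 against 210.4 and 1076 against 466 CPM). The main fit carries no term for replicate number, and these groups were not taken as paired under the rule given with the processing. Col12a1 lost its call without halofuginone replicate 3 (0.53) or DMSO replicate 1 (0.99) or 2 (0.85). Its highest library was replicate 3 in 12 of 12 groups, and that of Col5a1 in 11 and Col1a1 in 10, while Col3a1 was lowest in replicate 3 in 11 of 12.

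Type VIII chains form networks under endothelium, and type X marks hypertrophic cartilage. Col8a1 in WT cells read 124, 107 and 124 CPM with DMSO, 58.7, 56.5 and 63.7 with thapsigargin, 199, 122 and 173 with BtdCPU, and 278, 265 and 319 with halofuginone. The combination groups held 88.9, 71.1 and 84.8 CPM with BtdCPU plus thapsigargin, and 213, 181 and 195 with halofuginone plus thapsigargin. Thapsigargin libraries lay below DMSO and halofuginone libraries above it. Col8a1 in Perk-null cells read 109, 110.2 and 98.2 CPM with DMSO, 59.0, 56.8 and 52.1 with thapsigargin, 135, 113 and 106 with BtdCPU, and 160.1, 139 and 175 with halofuginone. After combined treatment it read 83.6, 79.9 and 65.6 CPM with BtdCPU plus thapsigargin, and 105, 104 and 111 with halofuginone plus thapsigargin. Perk-null thapsigargin libraries again lay below DMSO and halofuginone libraries above it. Thapsigargin changed Col8a1 by -0.99 (SE 0.13, adjusted p 2.24e-07) in WT and -0.92 (SE 0.13, adjusted p 2.07e-06) in Perk-null cells, and the difference of 0.070 (SE 0.18, adjusted p 0.815) did not pass. Halofuginone changed it by 1.28 (SE 0.13, adjusted p 4.63e-10) and 0.58 (SE 0.13, adjusted p 0.000553), a difference of -0.70 (SE 0.18, adjusted p 0.00329).

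Col8a2 fell with halofuginone in both genotypes (-1.80 and -1.76). It read 0.829, 0.618 and 0.898 CPM in WT DMSO libraries and 0, 0.235 and 0.432 with halofuginone. In Perk-null cells it read 0.273, 0.441 and 0.511 and 0.135, 0.165 and 0.0549 CPM. Neither pair overlapped, at levels under 1 CPM throughout. The WT call was lost without halofuginone replicate 1 (-1.29), and without halofuginone replicate 3 the change was -2.72. The Perk-null call was lost without halofuginone replicate 1 (-1.87), 2 (-2.06) or 3 (-1.42) or DMSO replicate 2 (-1.70) or 3 (-1.56). Col7a1 read 231, 238 and 247 CPM with DMSO, and 441, 482 and 521 with halofuginone in WT cells, without overlap. It rose with halofuginone, in WT cells by 1.01 (SE 0.14, adjusted p 2.74e-07) and in Perk-null cells by 0.57 (SE 0.16, adjusted p 0.00485). The Perk-null libraries overlapped, and the call was lost without halofuginone replicate 3 (0.41). Col7a1 ran from 178 to 521 CPM over the 18 WT libraries and from 3.13 to 10.5 over the 18 Perk-null ones. Col17a1, a transmembrane chain of hemidesmosomes, fell with thapsigargin in WT cells (-0.93), not without DMSO replicate 3 (-0.83). Col10a1 and Col28a1 were called in no single-drug comparison against DMSO. Col28a1 ran from 0.255 to 0.929 CPM over the 18 WT libraries and from 0.0267 to 0.461 over the 18 Perk-null ones. Col10a1 ran from 0.0555 to 0.527 CPM over the 18 WT libraries and from 0.132 to 1.33 over the 18 Perk-null ones. Both stayed under 2 CPM, and Col10a1 shares exon bases with Nt5dc1 on the opposite strand.

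**Figure D5:**
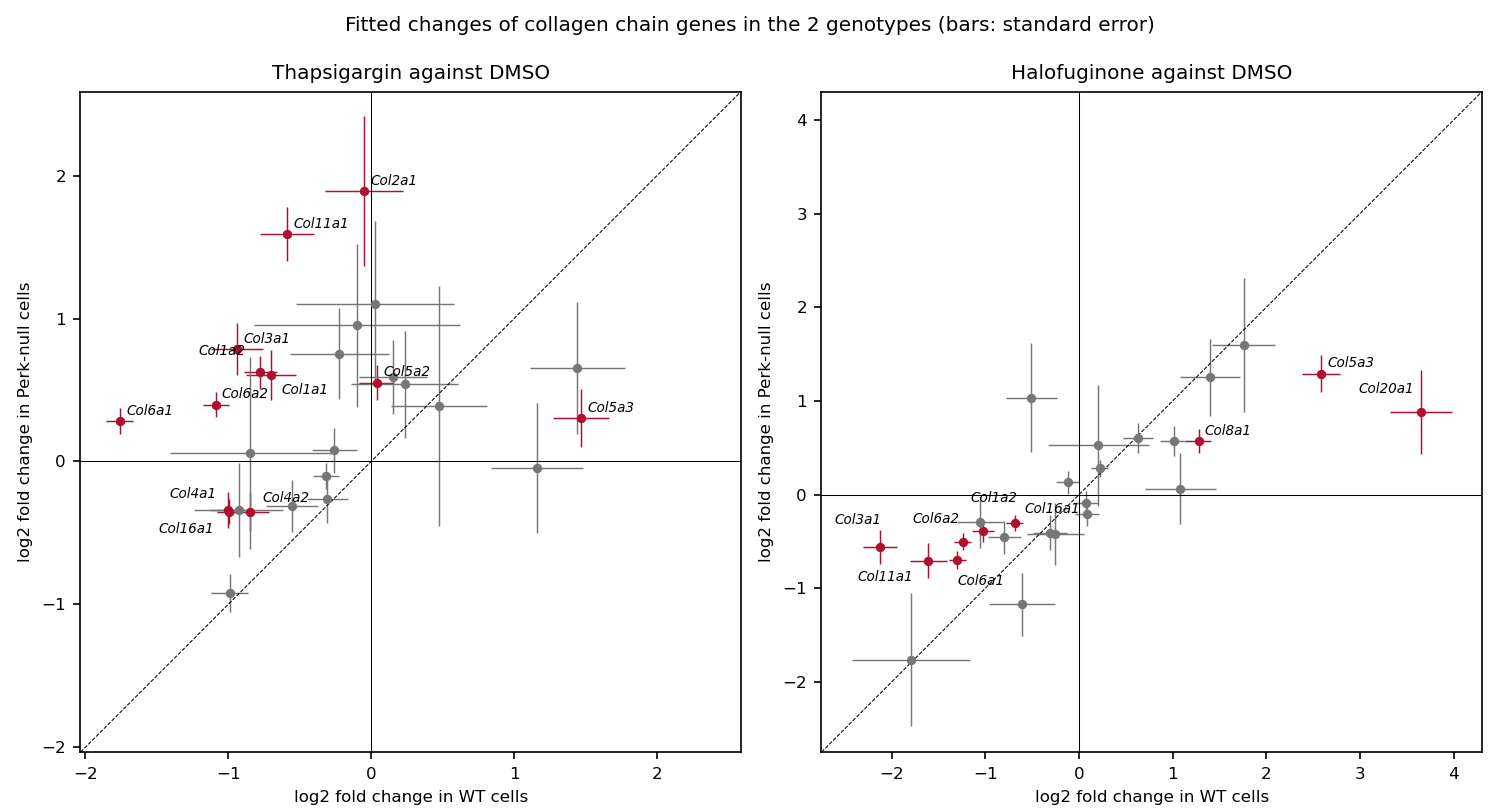
Log2 change against DMSO in WT cells (x) and Perk-null cells (y), with SE bars, for thapsigargin (27 chains) and halofuginone (26 chains), leaving out chains with a group at the floor (dashed line, equal response; red and named, response called different between genotypes). With thapsigargin, Col1a1, Col1a2, Col3a1, Col6a1 and Col6a2 lie above the line, and Col5a3 lies below it.

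BtdCPU and halofuginone were compared directly, as agents that act on different eIF2α kinases; no dose was given, so the values are of the treatments as applied. BtdCPU alone raised Col6a3 (0.57), Col8a1 (0.48) and Col18a1 (0.28) and lowered Col11a2 (-1.40) and Col20a1 (-1.29) in WT cells. The libraries of Col6a3 and Col8a1 overlapped. By replicate number, each BtdCPU library of both chains lay above its DMSO counterpart, though these groups were not taken as paired. Col6a3 lost its call without BtdCPU replicate 1 (0.52) or 3 (0.38) or DMSO replicate 1 (0.52) or 2 (0.43). The call of Col8a1 was lost without BtdCPU replicate 1 (0.31) or DMSO replicate 2 (0.41). Col18a1 did not pass without BtdCPU replicate 1 (0.23) or 3 (0.29) or DMSO replicate 1 (0.23) or 2 (0.25). It also did not pass with scaling by library size alone (0.20) or with no filter on low counts (0.28). The count of 5 became 1 without BtdCPU replicate 1, 7 without BtdCPU replicate 2 or DMSO replicate 3, 3 without BtdCPU replicate 3, 3 without DMSO replicate 1 and 2 without DMSO replicate 2, and the fit of these groups alone gave 1. Halofuginone against BtdCPU in WT cells called 8 chains higher and 14 lower, against 32.4% of all tested genes called higher and 31.9% called lower (64.4% in all). Among them were Col20a1 (4.95), Col11a2 (2.80), Col3a1 (-1.71) and Col11a1 (-1.57). Col6a5 was higher and Col10a1 lower too, each with 1 group at the floor, and Col10a1 was not called without BtdCPU replicate 1 (-1.50) or halofuginone replicate 1 (-1.96), 2 (-1.87) or 3 (-1.93). In Perk-null cells 5 were higher and 9 lower, against 17.9% of all tested genes called higher and 18.1% called lower (36.1% in all). Those whose libraries do not overlap included Col11a2 (1.75), Col5a3 (1.07), Col8a1 (0.42), Col8a2 (-1.83), Col15a1 (-0.86) and Col6a1 (-0.69). The other higher chains, Col5a1 (0.53) and Col7a1 (0.48), had overlapping libraries. The total of 14 became 6 without BtdCPU replicate 3 and 7 without halofuginone replicate 3. Col8a1 lost its call without BtdCPU replicate 3 (0.36) or halofuginone replicate 3 (0.36). The call of Col15a1 was lost without BtdCPU replicate 1 (-0.77) or 3 (-0.76) or halofuginone replicate 2 (-0.83) or 3 (-0.65). Col8a2 did not pass without BtdCPU replicate 1 (-1.73), 2 (-1.91) or 3 (-1.81) or halofuginone replicate 1 (-1.92), 2 (-2.12) or 3 (-1.48). Col5a1 lost its call without BtdCPU replicate 1 (0.43) or halofuginone replicate 3 (0.41). The call of Col7a1 was lost without BtdCPU replicate 1 (0.46) or halofuginone replicate 1 (0.39) or 3 (0.32). Col5a3 was at 12.1, 10.5 and 10.8 CPM with BtdCPU and 21.0, 24.6 and 24.8 with halofuginone in Perk-null cells, which do not overlap.

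Adding BtdCPU to thapsigargin asks whether activating HRI changed the response to ER stress. In WT cells 2 chains fell, Col3a1 (-0.96) and Col1a2 (-0.42), against 1.29% of all tested genes called higher and 1.02% called lower (2.32% in all). These groups pair by number, and a fit with that block called 6 chains, 2 higher and 4 lower, adding Col5a2 (-0.36), Col11a1 (-0.45), Col12a1 (0.29) and Col8a1 (0.45). The 2.32% is of the fit without that block, and the share of all tested genes under the block was not taken. Col3a1 lost its call without BtdCPU plus thapsigargin replicate 3 (-0.82). The call of Col1a2 was lost without BtdCPU plus thapsigargin replicate 2 (-0.38) or 3 (-0.38) or thapsigargin replicate 1 (-0.45) or 3 (-0.28). It was also lost with scaling by library size alone (-0.36) or with only the compared groups (-0.42). In Perk-null cells 9 chains fell and 1 rose, against 17.3% of all tested genes called higher and 18.3% called lower (35.6% in all). The falls were Col11a1 (-1.25), Col3a1 (-1.10), Col27a1 (-0.84), Col15a1 (-0.83) and Col1a1 (-0.73), with Col6a1 (-0.64), Col1a2 (-0.60), Col6a2 (-0.49) and Col5a2 (-0.47), and Col8a1 rose (0.45). Col27a1 lost its call without BtdCPU plus thapsigargin replicate 2 (-0.68). The call of Col15a1 was lost without BtdCPU plus thapsigargin replicate 1 (-0.87), 2 (-0.90) or 3 (-0.63) or thapsigargin replicate 1 (-0.67) or 3 (-0.70). Col1a1, Col1a2, Col3a1 and Col11a1 had risen with thapsigargin alone in these cells. The genotype difference was called lower for 4 chains, against 10.7% of all tested genes called higher and 10.1% called lower (20.8% in all), namely Col27a1 (-1.21), Col11a1 (-0.80), Col6a1 (-0.74) and Col6a2 (-0.48). The count was 2 without Perk-null BtdCPU plus thapsigargin replicate 2 and 2 without Perk-null thapsigargin replicate 3. Col27a1 lost its call without Perk-null BtdCPU plus thapsigargin replicate 2 (-1.04). The call of Col11a1 was lost without Perk-null BtdCPU plus thapsigargin replicate 1 (-0.77), 2 (-0.70) or 3 (-0.79), Perk-null thapsigargin replicate 3 (-0.57), WT BtdCPU plus thapsigargin replicate 1 (-0.75) or 2 (-0.64) or WT thapsigargin replicate 1 (-0.71) or 3 (-0.75). Col6a2 did not pass without Perk-null thapsigargin replicate 3 (-0.35).

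Adding halofuginone to thapsigargin called 7 chains higher and 4 lower in WT cells, against 22.8% of all tested genes called higher and 22.5% called lower (45.3% in all). Those higher were Col20a1 (2.48), Col8a1 (1.72), Col6a5 (1.36), Col7a1 (0.96), Col5a3 (0.91), Col5a1 (0.60) and Col4a1 (0.51), and those lower Col11a1 (-0.93), Col3a1 (-0.85), Col1a2 (-0.32) and Col6a2 (-0.24). These groups pair by replicate number as well, and the block gave 14, adding Col4a2 (0.26), Col12a1 (0.46) and Col6a3 (-0.36). Here too the 45.3% is of the fit without the block, and no share was taken under it. Col1a2 lost its call without halofuginone plus thapsigargin replicate 1 (-0.32) or 2 (-0.25) or thapsigargin replicate 3 (-0.19), and with only the compared groups (-0.33). The call of Col6a2 was lost without halofuginone plus thapsigargin replicate 2 (-0.25) or 3 (-0.20) or thapsigargin replicate 1 (-0.23) or 2 (-0.22). It was also lost with no filter on low counts (-0.28) or with only the compared groups (-0.24). Col6a5 did not pass without halofuginone plus thapsigargin replicate 1 (1.39) or 3 (0.92) or thapsigargin replicate 1 (1.22) or 3 (1.23). In Perk-null cells 6 rose and 10 fell, against 25.2% of all tested genes called higher and 27.5% called lower (52.7% in all). Those that fell were led by Col8a2 (-1.86), Col11a1 (-1.73), Col15a1 (-1.6), Col6a1 (-1.28) and Col1a1 (-0.98), with Col3a1 and Col1a2 at -0.94 and -0.92. Those that rose were Col11a2 (1.80), Col6a4 (1.58), Col5a3 (1.04), Col8a1 (0.93), Col7a1 (0.63) and Col5a1 (0.48), and the libraries of Col6a4 overlapped. Col8a2 lost its call without halofuginone plus thapsigargin replicate 1 (-1.67). The call of Col6a4 was lost without halofuginone plus thapsigargin replicate 1 (1.52) or 2 (1.49) or thapsigargin replicate 1 (1.13) or 3 (1.15). Col6a4 also lost it with only the compared groups (1.62), and without thapsigargin replicate 2 its value was 3.49. The genotype difference was lower for 9 chains and higher for 1, against 15.9% of all tested genes called higher and 16.9% called lower (32.7% in all). It was led by Col20a1 (-2.10), Col6a1 (-1.37), Col15a1 (-1.35) and Col1a1 (-0.91) and, higher, Col11a2 (1.40). Col15a1 and Col11a2 each depended on several libraries: Col15a1 lost its call without Perk-null halofuginone plus thapsigargin replicate 2 (-1.12) or 3 (-1.30), Perk-null thapsigargin replicate 1 (-1.19) or 3 (-1.21), WT halofuginone plus thapsigargin replicate 1 (-1.29) or 3 (-1.28) or WT thapsigargin replicate 1 (-1.21) or 2 (-1.31). Col11a2 lost its call without Perk-null halofuginone plus thapsigargin replicate 1 (1.13), Perk-null thapsigargin replicate 1 (1.08) or 2 (1.40), WT halofuginone plus thapsigargin replicate 1 (1.31) or 3 (1.38) or WT thapsigargin replicate 2 (1.31). The 2 additions share the thapsigargin libraries, so their values stand side by side and were not correlated.

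The machinery that modifies and folds the chains was described from gene lists written with earlier results of these data known. Of the enzymes that hydroxylate and glycosylate the chains, 2 of 14 rose and 11 fell with halofuginone in WT cells (median -0.99), including P4ha2 (-1.91), P3h1 (-1.83), Crtap (-1.40) and P3h3 (-1.39). P4ha2 is a prolyl 4-hydroxylase, and P3h1 and Crtap form the prolyl 3-hydroxylase complex. In Perk-null cells 1 of 14 rose and 8 fell (median -0.45), where 21.2% of all tested genes were called higher and 21.0% lower. Those called included P4ha2 (-1.17) and P3h2 (1.03). With thapsigargin 4 of 14 rose and 7 fell in WT cells (median -0.36) and 8 of 14 rose and 1 fell in Perk-null cells (median 0.46). Over all tested genes thapsigargin called 24.9% higher and 22.7% lower in WT, and 15.2% and 12.7% in Perk-null cells. In the latter P3h1 (1.38) and P4hb (0.91) rose and P3h4 (-1.22) fell. P4hb is protein disulfide isomerase, a subunit of the hydroxylase.

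Among chaperones and export factors, 1 of 8 rose and 7 fell with halofuginone in WT cells (median -0.66), led by Fkbp14 (-4.03) and Serpinh1 (-1.19). Serpinh1 encodes HSP47, the collagen chaperone, and Fkbp14 is an ER prolyl isomerase. With thapsigargin 4 of 8 rose and 1 fell in WT (median 0.37) and 6 of 8 rose and 1 fell in Perk-null cells (median 0.92), beside the same shares of all tested genes (24.9% higher and 22.7% lower in WT, 15.2% and 12.7% in Perk-null cells). In Perk-null cells Fkbp14 (2.04), Sec24d (1.23) and Serpinh1 (0.93) rose, and Sec24d is a COPII coat subunit used for collagen export. Of the genes of propeptide cleavage and crosslinking, 5 of 12 rose and 6 fell with halofuginone in WT cells (median -0.13), with Loxl3 (-2.52) and Tll1 (1.72) at the ends. Of the degradation genes, 4 of 11 rose and 3 fell (median -0.44), with Mmp13 (3.09) and Timp3 (2.18), a collagenase and an inhibitor. Of the regulators, 8 of 15 rose and 3 fell (median 0.41), with Tgfb2 (3.10) higher and Mkx (-3.12), Scx (-2.90) and Tgfb3 (-2.83) lower; the tendon factors Mkx and Scx and the ligands of TGFβ act on collagen genes. Of the fibril-associated proteins 3 of 10 rose and 4 fell (median -0.17), with Fmod (-5.23) and Tnc (2.04). Of the receptors, 4 of 8 rose and 3 fell (median 0.084), with Itga2 (1.6) and Ddr2 (1.34). These counts stand beside 34.7% of all tested genes called higher and 33.4% called lower with halofuginone in WT cells.

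Between genotypes in DMSO, 24.6% of all tested genes were higher and 24.9% lower in Perk-null cells. For hydroxylation and glycosylation 11 of 14 were lower and 1 higher, for folding and secretion 6 of 8 were lower, and for cleavage and crosslinking 10 of 12 were lower and 1 higher. Their medians were -0.68, -0.64 and -1.49, beside 0.021 over all tested genes. Of the receptors 6 of 8 were lower, of the degradation genes 5 of 11 were lower and 3 higher, of the regulators 7 of 15 were lower and 1 higher, and of the fibril-associated proteins 7 of 10 were lower and 2 higher. Among the lower genes were Fkbp14 (-1.78), P4ha3 (-1.65) and P3h3 (-1.45), and the collagenase Mmp13 was higher (3.45). Integrin α2, encoded by Itga2, was lower (-5.30), as was the proteoglycan Lum (-5.80), while Fmod was higher (3.40).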

How the data were processed

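RNA of the 36 libraries was sequenced strand-specifically on DNBSEQ after Quick-RNA extraction, per the labels, which mention both ribosomal depletion and mRNA selection. Estimated counts per gene symbol, without scaling between libraries, make up the table the authors deposited. In it 0.025 stands for 0 (50.6% of values). Among the rest, 2.69% have a fractional part. The submitters' processing notes name GRCm39 and DESeq; the aligner, counter, annotation and use of strand are not given in the sources used here.

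The deposited counts were rounded, 27 date-named entries (0.206% to 0.278% of a library's counts) were dropped, and 39 repeated symbols were summed, leaving 36856 symbols. After filterByExpr, 16065 genes were scaled by TMM and tested with edgeR 4.0.16 (R 4.3.3, limma 3.58.1), a quasi-likelihood fit of 12 group means with 24 residual degrees of freedom and a common dispersion of 0.0199. There were 13 two-group contrasts and 5 genotype differences, with p-values adjusted by Benjamini-Hochberg over all tested genes. The fit was tested on simulated counts for halofuginone against DMSO in WT cells. It recovered 57% of 100 genes given a log2 change of 1 in size and 30% of 100 given 0.5. There were 5 false calls among unchanged genes. Far fewer genes changed there than were called in the data, so these rates need not hold for the chains. An exact test of 3 libraries against 3 cannot go below p = 0.1, so single genes were tested in the fit. A count of 0 allows up to 3 counts, and a group with at most 3 counts in each library is at the floor. Counting intervals are at the 95% level. No library repeated another (chi-square per degree of freedom at least 9.06 within groups). Lengths, overlaps and neighbours are from GENCODE M21 and promoters from RefSeq, both of GRCm38, not the submitters' build, so only the promoter windows carry coordinates.

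A comparison was taken as paired by replicate number where same-numbered libraries deviated together with r above 0.1 for each number. This held for BtdCPU added to thapsigargin in WT cells (r 0.159, 0.312 and 0.337). It also held for halofuginone added to thapsigargin in WT cells (r 0.162, 0.201 and 0.308). In other WT comparisons only some numbers passed, as in BtdCPU against DMSO (r 0.0682, 0.254 and 0.287). The main fit carries no replicate term. Alternatives were RLE scaling, library size alone, no filter, DESeq2 1.42.0, the compared groups alone, a replicate block and each library left out. Members and gene lists were chosen with earlier results of these data known. Chains described at most length are the main type I, III, IV, V, VI and XII chains. Per comparison, the next were called chains with groups that do not overlap and the largest changes, 3 in each direction (2 for genotype differences). Standard errors and adjusted p-values are given for part of these changes. Other called chains are given by value or only within the counts.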

Additional observations from a re-analysis of the deposited data

Results flagged for a closer look

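These genotype differences, Perk-null response minus WT response, passed the test of the difference itself and are given as log2 values.

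With thapsigargin, Col11a1 differed by 2.18 and rose in Perk-null while falling in WT cells, and Col5a3 differed by -1.17. Col4a5 differed by 2.67, but its Perk-null DMSO libraries are at the floor, so the value is no bound. Its call was lost without Perk-null DMSO replicate 1 (2.14) or 3 (2.14), and without replicate 2 the value was 5.81.

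With halofuginone, Col3a1 differed by 1.56 and Col11a1 by 0.90, both falling more in WT cells. Col5a3 differed by -1.29 and Col20a1 by -2.77, both rising more in WT cells.

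With BtdCPU added to thapsigargin, Col11a1 differed by -0.80 and Col27a1 by -1.21. With halofuginone added to thapsigargin, Col11a2 differed by 1.40, Col6a1 by -1.37 and Col20a1 by -2.10. Col6a1 read 400.0, 347 and 465 CPM with thapsigargin and 156, 163 and 178 with both agents in Perk-null cells, without overlap, while its WT libraries read 210.3, 243 and 229.9 and 227, 241 and 255, which overlap. The libraries on which the calls of Col11a1, Col27a1 and Col11a2 depended are named with those comparisons.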

How the results depend on the processing

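Of 540 pairs of a chain and a comparison, 206 were called. Of these 206 calls none changed direction under any alternative run, and 137 kept the call under every alternative run. Some pairs not called did change sign, 17 of them with scaling by library size alone. Leaving out a library gave 295 such sign changes, counted once per pair and library left out. With all libraries kept, 2 calls were lost under RLE scaling, 3 by library size alone, 9 with no filter on low counts, 13 when only the compared groups were fitted, 1 under the replicate block and 0 under DESeq2, which gave 10 adjusted p-values as NA. For BtdCPU in WT cells the count of 5 chains became 10 under the replicate block and 1 with only the compared groups. For BtdCPU added to thapsigargin in WT cells the count of 2 became 5 with no filter, 6 under the block and 1 with only the compared groups. Over all comparisons the block added 51 calls and ended 1. The share of all tested genes called was not taken under the block, so its counts of chains have no background beside them. For genotype differences, which the pairing rule did not cover, it gave 1 in place of 0 chains with BtdCPU and 15 in place of 9 with halofuginone. The call it ended was that of Col15a1 between genotypes in DMSO (0.81). The cause was not tested. Leaving out 1 library gave, in WT cells, 16 to 19 chains with thapsigargin, 1 to 7 with BtdCPU, 18 to 22 with halofuginone, 0 to 2 and 9 to 11 with BtdCPU or halofuginone added to thapsigargin, and 19 to 22 for halofuginone against BtdCPU. In Perk-null cells it gave 9 to 11, 0 to 1, 10 to 16, 8 to 10, 13 to 16 and 6 to 12 in that order. The genotypes in DMSO gave 20 to 23, and the genotype differences 10 to 14 with thapsigargin, 0 with BtdCPU whichever library was left out, 9 to 11 with halofuginone, and 2 to 4 and 8 to 10 with BtdCPU or halofuginone added to thapsigargin. Chains with few counts, such as Col6a5 and Col8a2, had larger standard errors than the type I chains, so smaller changes were not detectable in them.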
